A study of Homo sapiens with 12 samples.

Results

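The cyclins that drive the cell division cycle were followed in the TPC1 cell line and in 3 Dicer1 (+/−) clones made from it. The members were the 9 rows of the deposited gene table named CCND1, CCND2, CCND3, CCNE1, CCNE2, CCNA2, CCNB1, CCNB2 or CCNF, of 58302 rows in all, and they were matched by name. Polyadenylated RNA was sequenced in 12 libraries, 3 for each line. TPC1 is an established papillary thyroid carcinoma cell line, labelled wild type and untreated. D11, WB1 and TD5 are labelled DICER (+/−), and each was made with a transiently transfected CRISPR/Cas9 plasmid whose guide lies in exon 11 of Dicer1. All lines were kept in the same RPMI medium with serum and antibiotics. Each clone was grown from 1 sorted cell, whereas TPC1 was the unmodified parental population, so that an effect of the allele and of the cell a clone came from cannot be told apart within a clone. The study states in general that its experiments were repeated independently at least 3 times. It does not say of the sequencing whether the 3 libraries of a line came from separate cultures. P-values therefore measure only the spread between these libraries.

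Cyclins are the regulatory partners of the cyclin-dependent kinases (CDKs), and most of them appear and disappear once per division. D-type cyclins bind CDK4 and CDK6 in G1 and start the phosphorylation of the retinoblastoma protein, E-type cyclins bind CDK2 at the entry into S phase, cyclin A2 serves S phase and G2, and B-type cyclins bind CDK1 for mitosis. Cyclin F has no kinase partner of this kind and serves as the substrate receptor of an SCF ubiquitin ligase. Dicer, the product of DICER1, cuts miRNA precursors into mature miRNAs, and several mature miRNAs are known to repress D- and E-type cyclins, CCND1 and CCNE1 among the best studied. The miRNAs themselves were not measured in these libraries.

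The deposited values are reads scaled by the authors to 20000000 aligned reads per library, called scaled reads below. The reads behind them were estimated from the steps between the whole numbers at 12700000 to 21020000 per library, and 3 reads, the limit taken for detection, correspond to 2.85 to 4.72 scaled reads. Such limits cover counting error only. DICER1, the edited gene, had a mean of 1197 ± 142 scaled reads (SD, n = 3) in TPC1 (1101 to 1360), every clone library was lower (627 to 1093), and the clone means were 86.9%, 73.4% and 57.9% of it in D11, WB1 and TD5. On the log2 scale of the tests below, DICER1 changed by −0.19 in D11, −0.43 in WB1 and −0.77 in TD5. The adjusted p from limma was under 0.05 in WB1 and TD5, and in D11 neither the adjusted nor the unadjusted p was. In the study, sequencing of each clone found a frameshift deletion beside a wild-type allele. Its Western blots showed significantly less Dicer1 protein in all 3 clones. Reads of the edited and the wild-type allele were not told apart here. Of the thyroid markers, PAX8 was present in all libraries (7248 to 9879 scaled reads), and NKX2-1, SLC5A5 and TSHR were listed at 0 in every library. FOXE1, a thyroid transcription factor, fell from 280 to 316 scaled reads in TPC1 to 93 to 171 in the clones (log2 changes of −0.95, −1.06 and −1.20 for D11, WB1 and TD5). Its part in the cyclin results was not tested. TG held 11 to 27 scaled reads and HHEX 84 to 135. Epithelial markers summed to 16887 to 24330 scaled reads, carried by KRT8 and KRT18, with CDH1 and EPCAM at 0 to 5. Fibroblast markers summed to 165 to 362, endothelial markers to at most 9, and immune markers to 923 to 1514, of which 921 to 1514 came from CD68. Within the fibroblast sum, LUM held 63 to 78 scaled reads in TPC1, 0 in D11, 138 to 212 in WB1 and 0 to 2 in TD5. PDGFRB held 112 to 192 in TPC1, 95 to 135 in D11, 37 to 56 in WB1 and 139 to 158 in TD5. The part of these genes in the cyclin results was not tested. Mitochondrially encoded genes took 1.33% to 1.45% of the scaled reads in TPC1 and 1.67% to 2.22% in the clones, and their part in the results was not tested.

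Mature miRNAs pair with sites in a 3′ UTR that match their seed, and the sites of the cyclins are therefore shown first. Sites for the seeds (bases 2 to 8) of 5 miRNA families (let-7, miR-16, miR-17, miR-26 and miR-34) were counted in the 3′ UTR of 1 annotated transcript per gene. The miR-16 site was found in 5 of the 9 cyclins, namely CCND1, CCND2, CCND3, CCNF with 1 site each and CCNE1 with 2, and 26% of the 12036 tested genes with a 3′ UTR of at least 100 bases held at least 1. CCNA2, CCNB1 and CCNB2 held no site of any of the 5 families in 3′ UTRs of 1194, 614 and 168 bases. The miR-17 site was found in CCND1 and CCND2 (25.9% of all 3′ UTRs), the miR-26 site in CCND2 and CCNE1 (14.4%), the miR-34 site in CCNE2 (18.3%) and the let-7 site in CCNF (11.6%). The mature miR-16 from RefSeq (GRCh38.p14) is shown with its seed in capitals, followed by the sites it matches in the cyclin transcripts, with the 7 matching bases in capitals:
hsa-miR-16-5p: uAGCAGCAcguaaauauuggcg
CCND1, site from base 2033 of the 3′ UTR: cacattgttTGCTGCTattggagga
CCND2, site from base 1764: cacagagtgTGCTGCTattttataa
CCND3, site from base 614: tgacagcttTGCTGCTgaaggctca
CCNE1, first site, from base 247: tgctcccgaTGCTGCTatggaaggt
CCNE1, second site, from base 485: ttttgtaagTGCTGCTatatctatc
CCNF, site from base 1580: tcactgagcTGCTGCTtttatgtgt
The let-7 family is shown with its 1 match, in CCNF, which starts at base 1786 of the 3′ UTR:
hsa-let-7a-5p: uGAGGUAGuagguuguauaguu
CCNF: caatgatacCTACCTCacaggggtg
The 3′ UTRs differ in length, from 168 bases in CCNB2 to 5344 in CCND2, and longer ones have more places for a 7-base match. A match is a description of the sequence and not a measured site of binding.

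To ask whether the loss of 1 Dicer1 allele went with other cyclin levels, each clone was compared with TPC1, and the clones with each other, by limma on log2(value per 1000000 + 1) over all genes. A gene rose or fell here if its Benjamini-Hochberg adjusted p was under 0.05, and it was called if the change was also at least 1.5-fold. Of the 9 cyclins 8 were tested, and CCND2 was too low. In D11, 1 of 8 was called (CCNE2, higher), beside 4.84% of all 16027 tested genes, and 4 rose or fell at the adjusted p alone, beside 33.3% of all genes. In WB1, 2 were called (CCND3 and CCNE1, both lower), beside 4.99%, and 5 rose or fell, beside 30.9%. In TD5 none was called by limma or by voom, beside 2.6% of all genes, while 5 of 8 rose or fell, beside 11.9%, and 7 had an unadjusted p under 0.05. The median log2 fold change of the 8 was −0.09 in D11, −0.09 in WB1 and 0.05 in TD5, beside 0.05, 0.06 and 0.00 over all tested genes. The 3 comparisons share the TPC1 libraries. The libraries are bulk RNA, in which more cells of a kind or phase and more RNA per cell cannot be told apart. The values by library are plotted for the 8 tested cyclins.

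**Figure D1:**
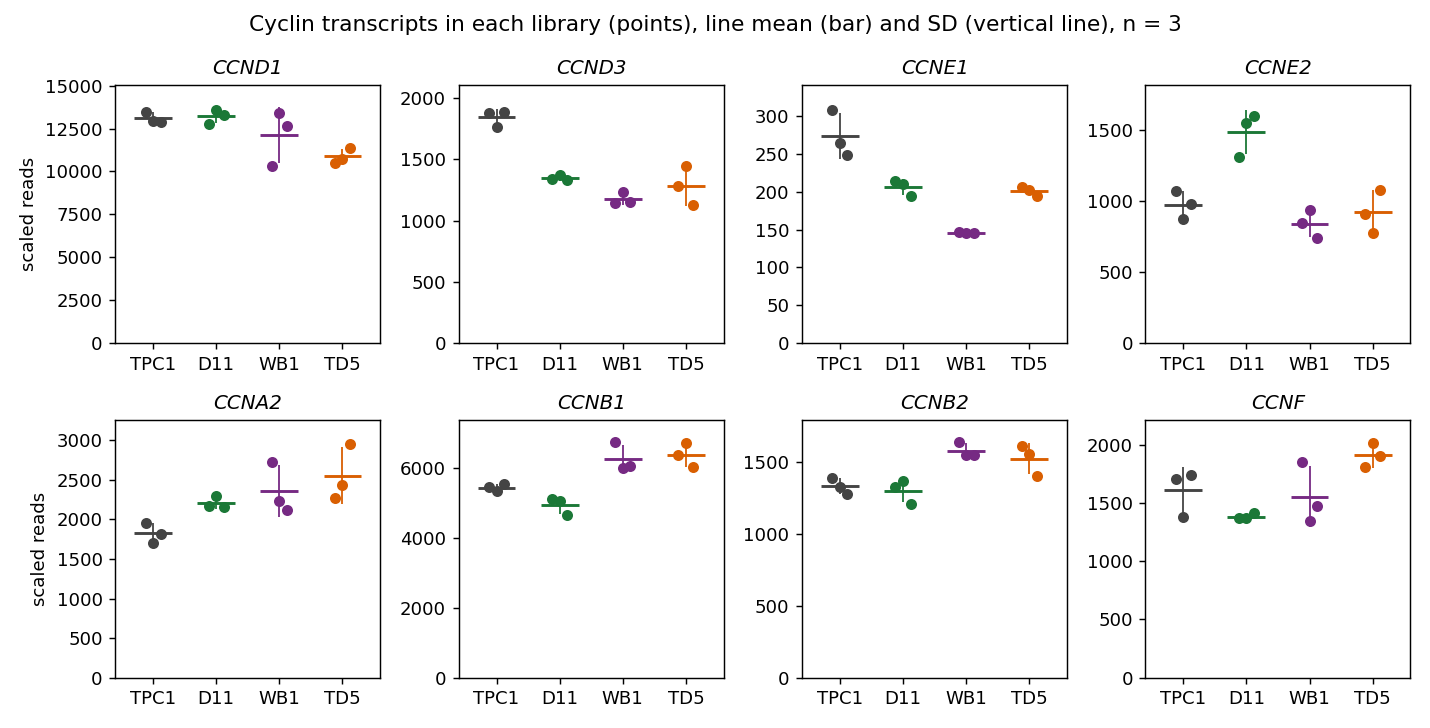
Scaled reads of the 8 tested cyclins (vertical axes, starting at 0) in the 3 libraries of each line (points), with the mean (horizontal bar) and SD (vertical line). CCND3 and CCNE1 lie below TPC1 in all clone libraries, CCNA2 lies above, and CCNE2 is high in D11 alone, at 1313 to 1600 scaled reads.

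**Figure D2:**
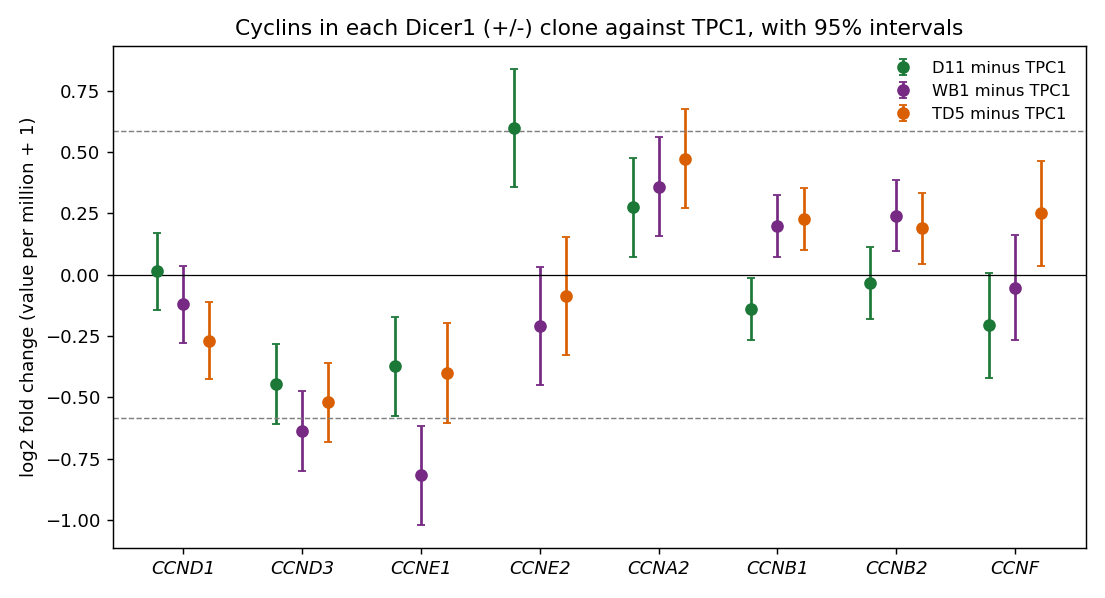
Log2 fold change of each cyclin in D11, WB1 and TD5 against TPC1 (points) with its 95% interval from limma (bars), on the log2(value per 1000000 + 1) scale. The dashed lines mark 1.5-fold, which CCNE2 in D11 (0.60), CCND3 in WB1 (−0.64) and CCNE1 in WB1 (−0.82) passed.

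Among the D-type cyclins, CCND3 fell in all 3 clones, CCND1 fell in TD5, and CCND2 did not reach 3 reads. CCND3 (ENSG00000112576, GRCh38 chr6:41934934-42050357, minus strand) encodes cyclin D3. It had 1879, 1764 and 1888 scaled reads in TPC1 and 1342, 1375 and 1328 in D11. WB1 held 1144, 1235 and 1154, and TD5 held 1281, 1449 and 1126. Every clone library was below every TPC1 library, and the clone means were 73.1%, 63.9% and 69.7% of that of TPC1. On the log2 scale CCND3 changed by −0.45 in D11 (SE 0.08, adjusted p = 0.000599 from limma), −0.64 in WB1 (SE 0.08, adjusted p = 2.65e-05) and −0.52 in TD5 (SE 0.08, adjusted p = 0.000319). Only the change in WB1 reached 1.5-fold, and the clones did not differ from one another past the threshold (adjusted p = 0.162 for WB1 against D11, with an interval of −0.36 to −0.03, 0.503 for TD5 against D11 and 0.315 for TD5 against WB1). The adjusted p for each clone stayed under 0.05 in all 24 alternatives. The call in WB1 was lost when libraries were corrected for GC content (−0.50), and TD5 reached a call without its replicate 2 (−0.61). The GC correction brought WB1 against D11 past the adjusted p (−0.21), as did leaving out TD5 replicate 3 for TD5 against WB1 (0.21).

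CCND1 (ENSG00000110092, chr11:69641156-69654474, plus strand) encodes cyclin D1, the D-type cyclin most often amplified in carcinomas. TPC1 held 13485, 12956 and 12872 scaled reads, D11 12769, 13597 and 13309, WB1 10304, 13430 and 12651, and TD5 10506, 10743 and 11372. TD5 was below every TPC1 library, D11 overlapped with TPC1, and WB1 spread from 1 library near TD5 to 2 within or near TPC1. CCND1 fell by 0.27 on the log2 scale in TD5 (SE 0.07, adjusted p = 0.0257 from limma), which is 83% of the TPC1 mean. In D11 the log2 fold change was 0.01 (95% interval −0.14 to 0.17), and in WB1 it was −0.12 (−0.28 to 0.04). CCND1 was also lower in TD5 than in D11 by the test of that difference (−0.28, adjusted p = 0.0122), though not without D11 replicate 2 (adjusted p = 0.0562). TD5 and WB1 differed by −0.15 (adjusted p = 0.186), and by −0.26 without WB1 replicate 1 (adjusted p = 0.0153). The fall against TPC1 in TD5 passed the adjusted p in 19 of 24 alternatives. It missed it without a filter on low values (adjusted p = 0.0759), without TPC1 replicate 1 (0.0868), replicate 2 (0.0512) or replicate 3 (0.0627), and without TD5 replicate 1 (0.0917), at log2 values between −0.25 and −0.28.

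CCND2 (ENSG00000118971, chr12:4269771-4305353, plus strand) was listed at 2 scaled reads in TPC1 replicate 3 and in WB1 replicate 1, which is about 1 read each, and at 0 in the other libraries. It was below the limit of 3 reads in every library, and no fold was computed. Divided by transcript length, the 3 D-type cyclins were then summed within each library, and CCND3 made up 22.6%, 22.2% and 23.5% of the sum in TPC1. The share was 18.0%, 17.5% and 17.3% in D11. It was 18.8%, 16.1% and 16% in WB1, and TD5 had 20.3%, 22% and 17.2%, with almost all of the remainder from CCND1. No clone library reached the TPC1 range. An exact two-sided permutation test gave p = 0.1 for each clone, the smallest that 3 against 3 libraries allow.

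CCND1 overlaps the gene ORAOV1 (named LTO1 in GENCODE), which is read from the other strand, over 1399 bases at their 3′ ends. Whether the counting separated the strands is not given in the sources used here, and the kit does keep strand. ORAOV1 held 1613 to 2115 scaled reads, and over the 12 libraries its log2 values correlated with CCND1 at r = 0.968, the highest value among 16026 other tested genes. With the line means taken out it was 0.954. The points share their lines, and this is a description. The plot of CCND1 against ORAOV1 shows that WB1 replicate 1 was low for both genes.

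Of the E-type cyclins, CCNE1 fell in all 3 clones and most in WB1, whereas CCNE2 rose in D11. CCNE1 (ENSG00000105173, chr19:29811991-29824312, plus strand) encodes cyclin E1. It had 308, 264 and 249 scaled reads in TPC1 and 214, 210 and 194 in D11. WB1 held 147, 145 and 146, and TD5 held 207, 203 and 195. All clone libraries were below those of TPC1, and WB1 was below the other clones. The log2 fold change was −0.37 in D11 (SE 0.10, adjusted p = 0.00791 from limma), −0.82 in WB1 (SE 0.10, adjusted p = 2.05e-05, a 1.87-fold lower mean) and −0.40 in TD5 (SE 0.10, adjusted p = 0.0114). WB1 differed from D11 (−0.44, adjusted p = 0.00650) and from TD5, which was higher than WB1 by 0.42 (adjusted p = 0.010), while TD5 and D11 differed by −0.03 with an interval of −0.23 to 0.17. The call in WB1 held in all 24 alternatives, with log2 values from −0.91 to −0.64. The fall in TD5 missed the adjusted p without TPC1 replicate 1 (−0.32, adjusted p = 0.0647).

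CCNE2 (ENSG00000175305, chr8:94879770-94896678, minus strand) encodes cyclin E2. TPC1 held 1073, 876 and 977 scaled reads and D11 1313, 1549 and 1600, so that every D11 library was above TPC1. WB1 held 847, 935 and 741 and TD5 912, 773 and 1081, and both overlapped with TPC1. CCNE2 rose by 0.60 in D11 (SE 0.11, adjusted p = 0.00129 from limma), a 1.52-fold higher mean. The intervals were −0.45 to 0.03 in WB1 and −0.33 to 0.15 in TD5. D11 also stood apart from the other clones, with CCNE2 lower by 0.81 in WB1 (adjusted p = 0.000155) and by 0.69 in TD5 (adjusted p = 0.000547), both called. For WB1 against D11 that was 1 call among the 8 cyclins, beside 2.85% of all genes, and for TD5 against D11 it was also 1, beside 3.99%.

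CCNE2 has the lowest GC content of the 9 transcripts (34.6%) and CCND3 the highest (60.0%). Correcting the libraries for GC content took CCNE2 in D11 from 0.60 to 0.24 (adjusted p = 0.00490), which ended the call and kept the adjusted p, and took TD5 against D11 from −0.69 to −0.39. With the same correction CCNE2 was lower in WB1 than in TPC1 by 0.47 (adjusted p = 1.03e-05, against 0.167 as scaled). The call in D11 was close to 1.5-fold and was also lost with a pseudocount of 4 (0.57), median-of-ratios scaling (0.54), and without TPC1 replicate 2 (0.53), D11 replicate 2 (0.57) or D11 replicate 3 (0.54), and that of TD5 against D11 without TD5 replicate 2 (−0.57). CCNE2 overlaps 3 tested genes read from the other strand, INTS8 over 1977 bases, NDUFAF6 over 1146 and AC087752.4 over 462.

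**Figure D3:**
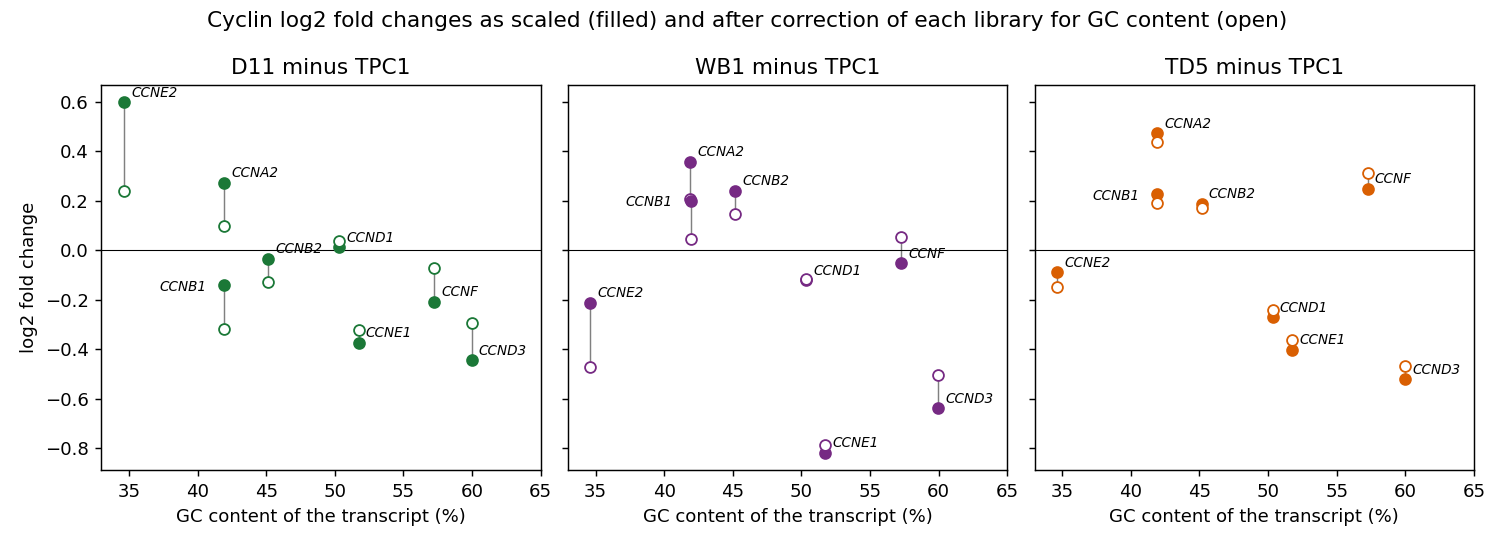
Log2 fold change of each cyclin against TPC1 (vertical axis) by the GC content of its transcript (horizontal axis), as scaled (filled) and after correcting the libraries for GC content (open, joined to the filled point). CCNE2, at 34.6% GC, moved from 0.60 to 0.24 in D11 and from −0.21 to −0.47 in WB1, and from −0.09 to −0.15 in TD5.

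Summed per transcript length, CCNE1 made up 28.2%, 29.2% and 25.9% of the E-type cyclins in TPC1. The share was 18.2%, 15.6% and 14.2% in D11. It was 19.2%, 17.5% and 21.2% in WB1, and TD5 had 23.7%, 26.4% and 19.8%. D11 and WB1 did not reach the TPC1 range, and TD5 overlapped with it. The exact permutation p was 0.1 for D11 and for WB1, the smallest possible, and 0.2 for TD5. The share moved in D11 with a lower CCNE1 and a higher CCNE2, and in WB1 with a lower CCNE1. Shares of the D and E types are plotted by library.

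**Figure D4:**
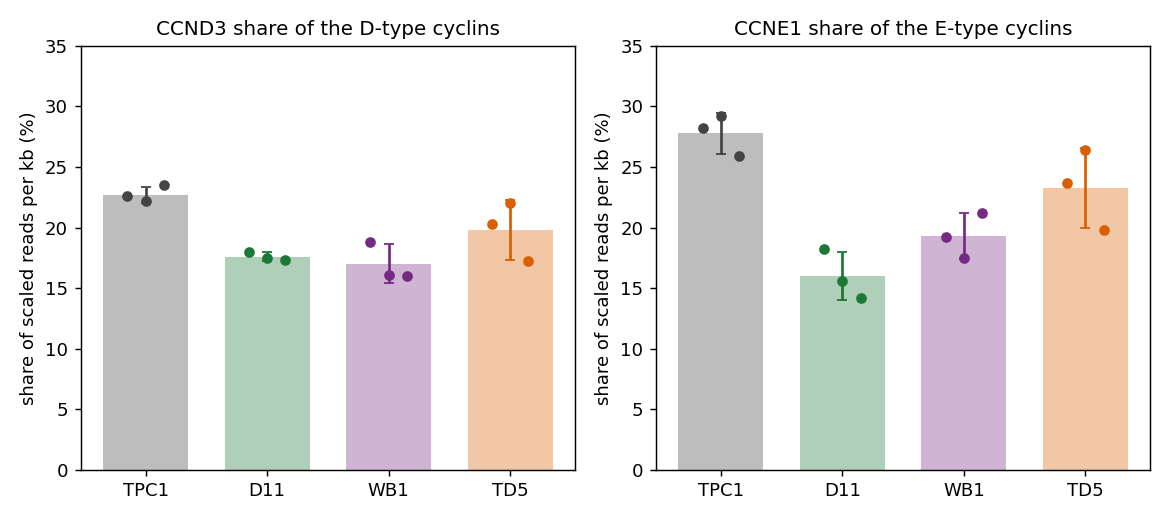
Share of CCND3 in the summed D-type cyclins (left) and of CCNE1 in the summed E-type cyclins (right), in percent of scaled reads per kb, for each library (points) with the mean (bar) and SD (error bar, n = 3). The mean CCND3 share was 22.7% in TPC1 and 17.6%, 17.0% and 19.8% in D11, WB1 and TD5, and the mean CCNE1 share was 27.8%, 16%, 19.3% and 23.3%.

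CCNA2 rose in all 3 clones, CCNB1 in WB1 and TD5, and CCNB2 in WB1, each by less than 1.5-fold. Cyclin A2, the product of CCNA2, is the A-type cyclin of dividing body cells. CCNA2 (ENSG00000145386, chr4:121816444-121823883, minus strand) had 1956, 1701 and 1818 scaled reads in TPC1 and 2173, 2293 and 2158 in D11. WB1 held 2726, 2229 and 2117, and TD5 held 2275, 2428 and 2955. Every clone library was above every TPC1 library. CCNA2 rose by 0.27 in D11 (SE 0.10, adjusted p = 0.0374 from limma), 0.36 in WB1 (SE 0.10, adjusted p = 0.0104) and 0.47 in TD5 (SE 0.10, adjusted p = 0.00389), and no clone differed from another past the threshold, except TD5 from D11 with the GC correction (0.34, adjusted p = 0.00548). The rise in TD5 passed the adjusted p in all 24 alternatives, that in WB1 in 21 and that in D11 in 13. In WB1 it missed without replicate 1 (0.25, adjusted p = 0.0648) and with the GC correction (0.21, 0.0645). Among the misses in D11 were the GC correction (0.10, adjusted p = 0.394) and the fits without TPC1 replicate 2 (0.132) or replicate 3 (0.0941). Others were those without D11 replicate 1 (0.0654), 2 (0.117) or 3 (0.0730), and not all misses are named.

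CCNB1 (ENSG00000134057, chr5:69167135-69178245, plus strand) encodes cyclin B1, the main mitotic partner of CDK1. TPC1 held 5434, 5324 and 5531 scaled reads, D11 5091, 5036 and 4651, WB1 6719, 5975 and 6048, and TD5 6371, 6696 and 6013. D11 lay below TPC1, and WB1 and TD5 lay above it, with no overlap. CCNB1 rose by 0.20 in WB1 (SE 0.06, adjusted p = 0.0193 from limma) and 0.23 in TD5 (SE 0.06, adjusted p = 0.0210), and the log2 fold change in D11 was −0.14 (interval −0.27 to −0.01, adjusted p = 0.0794). WB1 and TD5 were higher than D11 by 0.34 (adjusted p = 0.00127) and 0.37 (adjusted p = 0.000483), and these differences passed in all 24 alternatives. The rises over TPC1 passed in 19 alternatives for WB1 and 16 for TD5. With the GC correction they were 0.05 (adjusted p = 0.644) and 0.19 (0.0505), and D11 was lower than TPC1 (−0.32, 0.00214). Without TPC1 replicate 2 they had adjusted p = 0.0629 and 0.0654, without WB1 replicate 1 that of WB1 was 0.102, and that of TD5 was 0.0582, 0.0611 and 0.0565 without TPC1 replicate 1, TD5 replicate 1 and TD5 replicate 2.

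CCNB2 (ENSG00000157456, chr15:59105126-59125045, plus strand), the second B-type cyclin, had 1392, 1329 and 1281 scaled reads in TPC1 and 1331, 1369 and 1210 in D11. WB1 held 1642, 1548 and 1550, and TD5 held 1612, 1560 and 1403. WB1 and TD5 lay above TPC1, and D11 overlapped with it. CCNB2 rose by 0.24 in WB1 (SE 0.07, adjusted p = 0.0152 from limma), whereas the log2 fold change was 0.19 in TD5 (adjusted p = 0.0862, unadjusted p = 0.0142) and −0.03 in D11 (interval −0.18 to 0.11). Against D11, CCNB2 was higher by 0.28 in WB1 (adjusted p = 0.0183) and by 0.22 in TD5 (adjusted p = 0.0278). The rise in WB1 missed the adjusted p with median-of-ratios scaling (0.0549), the GC correction (0.0646), and without TPC1 replicate 3 (0.0652) or WB1 replicate 1 (0.0611), and TD5 passed it without its replicate 3 (0.25, adjusted p = 0.0368) and with the GC correction (0.17, 0.0464). Against D11 it missed without D11 replicate 3 (adjusted p = 0.114 for WB1 and 0.143 for TD5), without WB1 replicate 1 (0.0784), and without TD5 replicate 1 (0.109) or 2 (0.0821). TD5 against D11 passed in 19 of 24 alternatives and also missed without a filter on low values (0.0506) and with only these lines fitted (0.0571).

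CCNF (ENSG00000162063, chr16:2429394-2458854, plus strand) was not past the threshold in any clone against TPC1 as scaled and differed between 2 clones. It had 1706, 1374 and 1739 scaled reads in TPC1 and 1368, 1368 and 1410 in D11. WB1 held 1847, 1341 and 1474, and TD5 held 1805, 2013 and 1900. TD5 was above all TPC1 libraries, D11 was at the level of the lowest TPC1 library, and WB1 overlapped with both. The log2 fold change against TPC1 was −0.21 in D11 (interval −0.42 to 0.01), −0.05 in WB1 (−0.27 to 0.16) and 0.25 in TD5 (0.04 to 0.46, adjusted p = 0.119 from limma). CCNF was higher in TD5 than in D11 by 0.46 (adjusted p = 0.00446), which held in all 24 alternatives. TD5 against WB1 gave 0.30 (adjusted p = 0.0548), and it passed in 5 alternatives, among them without WB1 replicate 1 (0.43) or TPC1 replicate 2. D11 was lower than TPC1 past the adjusted p without TPC1 replicate 2 (−0.31, 0.0331) and in 4 other alternatives, and TD5 was higher than TPC1 past it with the GC correction (0.31, 0.0287), with or without the replicate block. CCNF overlaps the lncRNA AC106820.5, read from the other strand, over 2603 bases, and their log2 values correlated at r = 0.908 over the 12 libraries.

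Between the clones, cyclins with an adjusted p under 0.05 numbered 4 of 8 for WB1 against D11, beside 8.07% of all genes, 5 of 8 for TD5 against D11, beside 23.2%, and 1 of 8 (CCNE1) for TD5 against WB1, beside 13.6%. For TD5 against WB1 none was called by limma or voom, beside 2.33% of all genes, and 2 had an unadjusted p under 0.05. D11 therefore stood apart from WB1 by CCNE1, CCNE2, CCNB1 and CCNB2, and from TD5 by CCND1, CCNE2, CCNB1, CCNB2 and CCNF. The log2 values of CCNB1 and CCNB2 correlated at r = 0.90 over the 12 libraries and at 0.71 with the line means taken out, the points sharing their lines.

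Levels of different cyclins were compared per 1000000 scaled reads and per kb of the transcript. In TPC1 CCND1 was highest, at 154.5 ± 3.93 (SD, n = 3), followed by CCNB1 at 133.7 ± 2.56, and the libraries did not overlap. CCND3 (45.5 ± 1.71) and CCNB2 (44.8 ± 1.87) came next and overlapped, before CCNA2 (33.2 ± 2.32). CCNF (19.0 ± 2.39) and CCNE2 (18.2 ± 1.84) overlapped, and CCNE1 was the lowest of the detected cyclins at 7.0 ± 0.79. CCND1 and CCNB1 made up 33.9% and 29.3% of the cyclin sum in TPC1. In WB1 CCNB1 (153.8 ± 10.1) and CCND1 (143.0 ± 19.2) overlapped, and in TD5 CCNB1 (156.6 ± 8.42) was above CCND1 (128.2 ± 5.27) with no overlap, so that the order of the top pair in TPC1 and D11 was turned in TD5. CCND3 ranked above CCNB2 and CCNA2 by its mean in TPC1 and below both in each clone. In D11 CCNE2 (27.8 ± 2.86) was above CCNF (16.3 ± 0.29) with no overlap.

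Promoter sequences were read for the A and B types and for CCNF. Genes of G2 and M phase are known to carry CCAAT boxes, bound by NF-Y, and a cell cycle homology region (CHR), bound by the DREAM and MuvB complexes, near their start. In the 250 bases before the RefSeq start, the letters CCAAT were found on either strand in all 4 of these genes, against 32.6% of 14817 promoters of tested genes. CHR letters were searched on both strands in 3 forms. TTTGAA was found in 9.01% of all promoters and CTTGAA in 6.57%. TTTAAA, which is its own reverse complement, was found in 8.05%. CCNB2 held 4 CCAAT boxes with TTTGAA 29 bases before the start, CCNB1 held 2 with TTTAAA at 30 bases, CCNA2 held 1 with CTTGAA at 28 and 87 bases, and CCNF held 4 with TTTGAA at 85 bases. CCNB2 also held TTTAAA at 193 bases. The CCNE1 promoter held no CCAAT and held TTTAAA at 28 bases, and the 3 promoters listed for CCND3 held CCAAT in 2 and no CHR letters. CCND1, CCND2 and CCNE2 were not matched in the promoter table. The E2F letters TTTCGCGC, TTTGGCGC and TTTCCCGC were found in 0.641%, 0.823% and 2.07% of all promoters. They were in none of the windows of the matched members, and other E2F forms were not searched. The 140 bases before the more upstream of the RefSeq and GENCODE starts are shown on the strand of the gene (GRCh38.p14), with CCAAT boxes on either strand and CHR letters in capitals:
CCNA2, chr4:121823884-121824023, minus strand: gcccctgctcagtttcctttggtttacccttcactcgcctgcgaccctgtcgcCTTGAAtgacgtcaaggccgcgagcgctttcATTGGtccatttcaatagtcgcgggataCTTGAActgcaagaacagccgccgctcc
CCNB1, chr5:69166995-69167134, plus strand: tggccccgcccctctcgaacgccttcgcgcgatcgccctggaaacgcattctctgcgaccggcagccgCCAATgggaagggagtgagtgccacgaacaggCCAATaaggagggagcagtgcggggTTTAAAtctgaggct
CCNB2, chr15:59104986-59105125, plus strand: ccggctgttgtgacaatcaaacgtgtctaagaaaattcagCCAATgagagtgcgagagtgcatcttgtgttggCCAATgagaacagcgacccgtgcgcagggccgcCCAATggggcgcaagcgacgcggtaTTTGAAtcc
CCNF, chr16:2429254-2429393, plus strand: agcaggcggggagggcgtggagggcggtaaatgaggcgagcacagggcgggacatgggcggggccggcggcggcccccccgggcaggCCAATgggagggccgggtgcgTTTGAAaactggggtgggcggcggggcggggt
These matches describe the letters in the windows and were not tested against the levels.

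The genes whose log2 values followed each cyclin most closely were sought over the 12 libraries, with a mean of 5 or more per 1000000 required of each gene. For CCNB1 they were SPAG5 (r = 0.955), KIF4A (0.937) and NDE1 (0.936), which encode proteins of the mitotic spindle and chromosomes. For CCNA2 they were TMPO (0.945), SHCBP1 (0.931) and HYLS1 (0.928), and for CCNB2 CKAP5 (0.960), BEST3 (0.956) and CHD4 (0.934). CCNE2 was followed by NAP1L1 (0.961), MMS22L (0.959) and HACD3 (0.951), and CCNE1 by FSTL1 (0.954), AFAP1 (0.942) and GFRA1 (0.938). The closest to CCND3 were TNFAIP1 (0.971), RRP12 (0.969) and ERCC2 (0.964), those to CCND1 after ORAOV1 were DAB2 (0.894) and HEG1 (0.883), and those to CCNF were KIF22 (0.924), AC106820.5 (0.908) and PSRC1 (0.906). Among these genes the line means of GFRA1 had the widest fold range, with means of 1267 scaled reads in TPC1, 528 in D11, 313 in WB1 and 700 in TD5. These correlations are descriptions of points that share their lines.

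The other cyclins, which serve transcription, splicing or other processes, were read from a list of 19, of which 17 were tested. In D11, 2 were called higher and 8 rose with none falling, in WB1 2 were called higher and 4 rose, and in TD5 none was called, 2 rose and 1 fell. For these and the following lists, the share of all genes that rose or fell was 33.3% in D11, 30.9% in WB1 and 11.9% in TD5. The share of all genes called, higher or lower, was 4.84% in D11, 4.99% in WB1 and 2.6% in TD5. The called genes were CCNL1 and CCNL2, cyclins of pre-mRNA splicing. CCNL1 had means of 573 ± 49.7 scaled reads in TPC1, 1277 ± 107 in D11, 1028 ± 92.2 in WB1 and 829 ± 70.2 in TD5, with log2 fold changes of 1.13 in D11 (adjusted p = 1.58e-07 from limma) and 0.82 in WB1 (1.00e-05). CCNL2 had means of 1059 ± 122, 1885 ± 68.6, 1667 ± 78.6 and 1367 ± 99.1, with 0.83 in D11 (2.35e-06) and 0.65 in WB1 (3.39e-05). These calls held in all 24 alternatives, except that CCNL2 in WB1 was at 0.55 without TPC1 replicate 3. With the GC correction 3 of the 17 rose in D11 in place of 8. For this and the following lists, the share of all genes that rose or fell with that correction was not counted.

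Of the 7 CDK inhibitors, 1 rose and 3 fell in D11, 2 rose and 4 fell in WB1, and 2 rose and 3 fell in TD5. CDKN1A, which encodes p21, had means of 2699 ± 305 scaled reads in TPC1, 3426 ± 214 in D11, 1949 ± 348 in WB1 and 1642 ± 126 in TD5. It rose in D11 (0.35, adjusted p = 0.0185 from limma), fell in WB1 (−0.47, 0.00327) and fell in TD5 past 1.5-fold (−0.71, 0.000319). CDKN1C, which encodes p57, was called lower in D11 (−0.64) and TD5 (−0.91), and CDKN2B, which encodes p15, in TD5 (−0.59). The call of CDKN1C in D11 was lost with a pseudocount of 4, with the GC correction and without TPC1 replicate 3, and that of CDKN2B with a pseudocount of 4 and without TPC1 replicate 1, TD5 replicate 1 or TD5 replicate 2. CDKN2A fell in D11 (−0.39, adjusted p = 0.00555) and WB1 (−0.38, 0.00643) and was at −0.10 in TD5, and CDKN1B, which encodes p27, was at 0.28, 0.17 and 0.11 with no adjusted p under 0.05.

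The kinases and the regulators of their phosphorylation, 11 genes, had 3 that rose and 2 that fell in D11. WB1 had 1 and 3, and TD5 had 1 and 0. In D11 these counts became 0 and 1 with the GC correction, and 0 and 2 with median-of-ratios scaling. CDC25A, the phosphatase that activates CDK2, was the one called gene, lower in WB1 (−0.65, adjusted p = 0.000367 from limma), and it was at −0.55 without TPC1 replicate 1. Among 13 pocket proteins and E2F factors 8 rose and 0 fell in D11, 4 rose and 3 fell in WB1, and 1 rose and 1 fell in TD5. E2F7, an E2F repressor, was called higher in D11 (0.91, adjusted p = 1.73e-06) in all 24 alternatives, and E2F1 was called lower in WB1 (−0.66, 0.000110), at −0.51 with the GC correction. Of 10 genes of the DREAM and MuvB complexes, FOXM1 and NF-Y, 5 rose and 1 fell in D11, with LIN9 called higher (0.66). WB1 had 2 that rose, with LIN54 called (0.63), and 1 that fell, and TD5 had 1 and 0. Both lost the call with the GC correction (0.30 and 0.43) and with a pseudocount of 4, LIN9 also without D11 replicate 2, and LIN54 also with median-of-ratios scaling, with the length correction and without WB1 replicate 1. With the GC correction 5 of the 13 E2F and pocket protein genes and 1 of these 10 rose in D11.

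Genes of cyclin degradation, 11 in all, had none called against TPC1. In D11 1 rose and 3 fell, and WB1 had 2 and 2. None passed in TD5 by limma or voom, where 6 had an unadjusted p under 0.05. Their extremes were FBXO5, an inhibitor of the ligase APC/C (0.42, adjusted p = 0.00196 from limma, and 0.15 with the GC correction), and CDC20, an activator of APC/C (−0.40, 0.00617), in D11. Of 5 cyclin F substrates, CCP110, a centriolar protein, was called higher in D11 (0.63), 2 rose in D11, 2 fell in WB1 and none passed in TD5 by limma or voom, with 1 under 0.05 unadjusted. CCP110 kept its call in 16 of 24 alternatives. It was at 0.35 with the GC correction, and the call was also lost with a pseudocount of 4, median-of-ratios scaling and the length correction, and without TPC1 replicate 2 or D11 replicate 2. Of the 8 S phase genes (PCNA, the MCM genes and CDC45), 2 rose in D11, 5 fell in WB1 and none passed in TD5 by limma or voom (2 under 0.05 unadjusted), with PCNA at 0.44 in D11 and MCM2 at −0.46 in WB1. Of the 8 genes of mitosis, 1 rose and 1 fell in D11, 4 rose in WB1 and 3 rose in TD5, with medians of 0.05, 0.24 and 0.20, and their extremes were CENPF in WB1 (0.53) and PLK1 in D11 (−0.27). With the GC correction CENPF (0.10, adjusted p = 0.382 from limma) and PLK1 (−0.14, 0.179) missed in D11, and CENPE fell (−0.35, 0.0443). In WB1 TOP2A (0.21, 0.0643) and BUB1 (0.16, 0.0732) missed with it. CENPF (0.36, 0.00368), MKI67 (0.29, 0.0139) and PLK1 (0.25, 0.0159) passed there, as did TOP2A, PLK1 and BUB1 in TD5.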

How the data were processed

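The 12 libraries of TPC1, D11, WB1 and TD5 were grouped by their titles. Per the labels and the study's methods, the authors prepared TruSeq Stranded mRNA libraries, mapped paired-end reads with STAR 2.5.3a to GRCh38, counted them with HTSeq 0.9.1 on Ensembl 90 genes and scaled each library to 20000000 aligned reads. As deposited, the values are a score: whole scaled reads summing to 20009833 to 20014191 per library, and not counts. Because of this, the test for scaled values in the design was used in place of the authors' edgeR method. The members and lists were chosen with earlier results of these data known.

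Values per 1000000 of the library sum were tested as log2(value + 1) with limma 3.58.1 (R 4.3.3), with a mean-variance trend and 1 mean per line, for the 16027 of 58302 genes that reached 1 per 1000000 in 3 or more libraries, which CCND2 did not. Fold changes are on this scale and understate those of low genes. The Benjamini-Hochberg adjustment ran over all tested genes. Alternatives covered the pseudocount, filter, minimum fold, lines fitted, replicate block, scaling, voom on estimated reads, corrections for GC content (known for 99.1% of tested genes) and length, and leaving out each library. The 2 corrections combined with the block were added after seeing the data. The fit was tested on simulated data. Same-numbered libraries deviated together with correlations over 0.1 for all 3 pairs in D11 and TD5 alone (0.11, 0.17 and 0.35). Named genes were all members, DICER1, called genes of the lists (or their extremes), CDKN1A, CDKN1B and CDKN2A, and the 3 genes most correlated with each member. At a depth of 12700000 to 21020000 reads, CCND2 was below the limit of 3 reads in every library, and the reason was not tested. Of the tested cyclins, relative counting error was largest for CCNE1, with an estimated 119 to 176 reads per clone library, and smaller for the others. Sequences came from GENCODE 44 and RefSeq. Python 3.11.15 was used.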

Additional observations from a re-analysis of the deposited data

Results flagged for a closer look

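The cyclins were compared between clones by the test of the difference itself, and 10 differences had an adjusted p under 0.05 from limma over all genes. WB1 was lower than D11 for CCNE1 (−0.44) and CCNE2 (−0.81) and higher for CCNB1 (0.34) and CCNB2 (0.28). TD5 was lower than D11 for CCND1 (−0.28) and CCNE2 (−0.69) and higher for CCNB1 (0.37), CCNB2 (0.22) and CCNF (0.46). TD5 was higher than WB1 for CCNE1 (0.42). Both CCNE2 differences reached 1.5-fold. CCNE1 was higher in every D11 and TD5 library than in any WB1 library, and CCNE2 was higher in every D11 library than in any other library. Of these 10 differences, 7 kept an adjusted p under 0.05 in all 24 alternatives at the same thresholds, and those of CCND1 and CCNB2 did not.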

How the results depend on the processing

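With the stated thresholds, the calls of CCNE1 in WB1 against TPC1 and of CCNE2 in WB1 against D11 held in all 24 alternatives, and 3 other calls did not. The number of cyclins called in D11 against TPC1 was 0 with a pseudocount of 4, with median-of-ratios scaling, and with the GC correction with or without the replicate block. The GC correction, with or without the block, left 1 called in WB1 against TPC1 and 0 in TD5 against D11. With no minimum fold change, 4 passed in D11, 5 in WB1 and 5 in TD5 against TPC1, 4 in WB1 and 5 in TD5 against D11, and 1 in TD5 against WB1. Leaving out 1 library gave 0 to 1 against TPC1 for D11 and likewise for TD5, and 2 to 2 for WB1. Between clones it gave 1 to 1 (WB1 against D11), 0 to 1 (TD5 against D11) and 0 to 0 (TD5 against WB1). The replicate block alone changed no call (1, 2 and 0 called against TPC1, and 1, 1 and 0 between clones), although the adjusted p of CCNA2 in D11 became 0.0554. Without division by length the CCND3 share was 12.3% in TPC1, 9.26% in D11, 8.92% in WB1 and 10.6% in TD5.

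Changes near 0 turned their sign, none of them past the threshold. Against TPC1, CCND1 in D11 was −0.062 with the length correction (with and without the block), −0.046 with median-of-ratios scaling, and −0.007 to 0.038 when 1 library was left out. CCNB2 in D11 was 0.008 with the length correction (with and without the block) and −0.07 to 0.018 with 1 library left out. CCNF in WB1 was 0.055 with the GC correction (with and without the block) and −0.182 to 0.046 with 1 library left out, and CCNE2 in TD5 −0.207 to 0.03. Against D11, CCNE1 in TD5 was 0.021 with median-of-ratios scaling, CCNA2 in WB1 was −0.023 to 0.158 and CCND3 in TD5 −0.164 to 0.015 with 1 library left out. For TD5 against WB1, CCNB2 was 0.004 with median-of-ratios scaling, 0.023 with the GC correction (with and without the block) and −0.093 to 0.006 with 1 library left out, and CCNB1 was −0.011 to 0.08. The cause was not tested.

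Over all genes, 775, 799 and 417 were called in D11, WB1 and TD5 against TPC1, and 456, 640 and 373 for WB1 against D11, TD5 against D11 and TD5 against WB1. In the same order a pseudocount of 4 gave 295, 339, 180, 213, 283 and 140, and no minimum fold gave 5329, 4956, 1906, 1293, 3721 and 2186. A pseudocount of 0.1 gave 1188 for D11 and 1233 for WB1 against TPC1, 987 for TD5 against D11 and 569 for TD5 against WB1. Voom gave 1177, 1272 and 978 for the first 3 of these. A minimum of 5 per 1000000 gave 514, 523 and 272 against TPC1, 280 for WB1 against D11 and 231 for TD5 against WB1.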

Other observations

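Over the 12 libraries, CCNA2 and its neighbour EXOSC9, which overlap by 578 bases on opposite strands, had log2 values that correlated at r = 0.588, and at 0.906 with the line means taken out. For CCNE2 the lncRNA AC087752.4, which held 23 to 134 scaled reads, correlated at r = 0.941 (0.866 with the line means taken out), and INTS8 at 0.786. Whether reads of these pairs were counted on the right gene was not tested. The annotated pseudogenes of the cyclins held at most a mean of 0.25 scaled reads (CCNB2P1).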
